A study of Mus musculus with 18 samples.

Results

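Ribosome biogenesis factors are the nucleolar and cytoplasmic proteins that transcribe, modify, cut and fold ribosomal RNA and assemble it with ribosomal proteins, without staying in the finished ribosome. The 42 factors described here are a list of gene symbols chosen by known function, and all 42 were found among the 21954 genes of the deposited table, 1 of them (Utp4) under the older symbol Cirh1a. They were measured by RNA-seq in mouse macrophages grown from bone marrow, wild type or with a knockout of L13a that the series title describes as specific to macrophages. L13a, encoded by Rpl13a, belongs to the large ribosomal subunit. Wild type and knockout cells were each studied without cytokine, with IFN and with IL4, in 6 groups of 3 libraries (18 in all). The labels name neither the type of interferon, the dose, the duration, the age of the animals, nor the promoter or Cre line behind the knockout. Nothing in them ties the 3 libraries of a group to different mice. The p-values therefore measure only the spread between these libraries, which may be technical in part or, in knockout, in whole. All 42 factors passed the filter on low counts and are among the 12514 genes tested, and the lowest expected count of any of them in any library was 107.

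Ribosome production starts in the nucleolus, where RNA polymerase I transcribes the ribosomal DNA into a long precursor. On this precursor the small subunit processome, the small nucleolar ribonucleoproteins (snoRNPs) and a series of large subunit factors assemble, and they cut and modify the RNA while ribosomal proteins join. Many of these factors are textbook targets of the transcription factor Myc, which binds the E-box CACGTG. Macrophages grown with IFN or IL4 are used as models of the classical (M1) and alternative (M2) activation states.

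The targeted gene was checked first. Rpl13a stood at 156 to 606 CPM in the 9 knockout libraries and at 437 to 867 CPM in the 9 wild type libraries (CPM are counts scaled to a common library total with TMM, a correction for library composition), so the ranges overlapped, and the log2 fold change over the mean of the 3 treatments was -1.11 (edgeR, adjusted p = 0.046). Lyz2, the macrophage lysozyme gene whose locus carries Cre in a common deleter strain, was at 0.682 to 7.12 CPM in knockout and at 2880 to 12100 CPM in wild type. Loss of L13a and loss of Lyz2 cannot be told apart in any comparison of genotypes below. The libraries held 18098711 to 28477342 expected counts each. Macrophage markers summed to 7630 to 12300 CPM, and all 10 passed the filter on low counts. Markers of neutrophils, B cells, T cells and red cell precursors summed to at most 4.02 CPM, while 12 fibroblast markers summed to between 25.9 and 606 CPM, 6 dendritic cell markers to 8.44 to 129 CPM and 5 markers of bone-forming cells to 5.84 to 54.8 CPM. Summed Y-linked transcripts were above 10 CPM in wild type libraries 1, 4, 5, 7 and 8 and in no knockout library. Untreated wild type libraries 2 and 3 differed far less (chi-square per degree of freedom 6.01) than the other pairs of libraries of a group (51.6 or more). In bulk RNA of this kind, fewer cells of a type and less RNA per cell cannot be told apart.

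Promoter sequences were taken from RefSeq (GRCm38.p6), which held an entry for 36 of the 42 factors. For each, the start site nearest the annotated gene start was used, with 250 bases before it and 50 after it. The sequences below are the 250 bases upstream of the factors called most often in the comparisons that follow, Nop14 (4 comparisons), Nolc1, Rrp1b and Ncl (3 each), and of Utp4, a small subunit factor like Nop14 that was called in none. Bop1 was also called in 3 comparisons. Capitals mark matches, on either strand, to CACGTG (E-box), CCGGAAG (an ETS family site), GGGCGG (an SP1 site), TATAAA, GAAANNGAAA (an interferon response element), TTCCNNNGAA (a STAT site) and TTCCNNNNGAA (a STAT6 site). Every run is printed 5′ to 3′ on the strand of the gene.
Nop14, chr5:34660149-34660398 (minus strand): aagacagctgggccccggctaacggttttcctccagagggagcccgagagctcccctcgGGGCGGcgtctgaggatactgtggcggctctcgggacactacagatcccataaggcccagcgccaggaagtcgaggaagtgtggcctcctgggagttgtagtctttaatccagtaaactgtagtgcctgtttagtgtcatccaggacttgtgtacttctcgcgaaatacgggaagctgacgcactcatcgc
Nolc1, chr19:46075597-46075846 (plus strand): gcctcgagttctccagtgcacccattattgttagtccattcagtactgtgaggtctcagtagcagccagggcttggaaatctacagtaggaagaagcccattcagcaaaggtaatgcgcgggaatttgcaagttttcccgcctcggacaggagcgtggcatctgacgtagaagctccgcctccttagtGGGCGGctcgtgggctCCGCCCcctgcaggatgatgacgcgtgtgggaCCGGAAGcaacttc
Rrp1b, chr17:32035912-32036161 (plus strand): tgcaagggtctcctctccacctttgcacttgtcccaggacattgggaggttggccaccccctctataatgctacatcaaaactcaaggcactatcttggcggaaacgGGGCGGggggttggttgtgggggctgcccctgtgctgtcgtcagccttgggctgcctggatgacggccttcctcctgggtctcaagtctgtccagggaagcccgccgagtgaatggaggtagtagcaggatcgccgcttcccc
Ncl, chr1:86359456-86359705 (minus strand): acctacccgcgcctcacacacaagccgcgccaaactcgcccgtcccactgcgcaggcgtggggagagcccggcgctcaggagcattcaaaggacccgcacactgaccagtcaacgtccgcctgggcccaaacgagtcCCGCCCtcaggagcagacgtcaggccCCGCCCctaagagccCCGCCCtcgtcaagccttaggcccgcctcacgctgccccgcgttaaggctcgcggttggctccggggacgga
Utp4, chr8:106893390-106893639 (plus strand): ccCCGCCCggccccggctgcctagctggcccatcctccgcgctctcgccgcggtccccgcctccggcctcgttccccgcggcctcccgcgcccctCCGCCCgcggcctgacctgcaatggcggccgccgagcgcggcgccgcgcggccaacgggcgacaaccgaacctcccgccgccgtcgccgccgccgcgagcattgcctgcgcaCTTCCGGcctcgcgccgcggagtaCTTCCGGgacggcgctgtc

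In these stretches the capitals of Nop14 and Rrp1b are a single GGGCGG each, and Ncl has 3 of them. Nolc1 has 2 GGGCGG matches and 1 ETS match, 14 bases before the start. Utp4 has 2 of each. None of the 5 stretches holds TATAAA, the interferon response element, TTCCNNNGAA or TTCCNNNNGAA, which says only that these letters are not in this window. Over the full 300-base windows of the 36 factors, GGGCGG occurred in 26 (72.2%), against 64.2% of the windows of 9662 tested genes with an entry and 35.7% of all 32851 windows. CCGGAAG occurred in 13 (36.1%), against 18.5% and 8.86%. The interferon response element occurred in 1 (2.78%, Nip7), against 3.38% and 3.44%. TTCCNNNGAA, with the STAT6 gap, occurred in 4 (11.1%: Rrn3, Bms1, Nop16 and Ddx21), against 3.46% and 3.91%. TTCCNNNNGAA, with the longer gap, was found in 0 (0.0%), against 3.29% and 3.8%, and TATAAA in 2 (5.56%), against 7.03% and 13.6%.

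The E-box occurred in the windows of 9 factors (25%), against 10.1% of the tested genes and 7.15% of all windows. Each is shown with 30 bases, the E-box in capitals. The number after the name gives the first base of the E-box counted from the start site, negative before it.
Rrn3, -215, chr16:13780472-13780501 (plus strand): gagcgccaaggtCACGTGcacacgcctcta
Rrn3, -48, chr16:13780639-13780668 (plus strand): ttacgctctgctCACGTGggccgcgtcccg
Utp4, 16, chr8:106893643-106893672 (plus strand): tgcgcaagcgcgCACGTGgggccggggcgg
Wdr43, 18, chr17:71616220-71616249 (plus strand): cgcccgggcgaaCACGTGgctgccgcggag
Utp20, 38, chr10:88826765-88826794 (minus strand): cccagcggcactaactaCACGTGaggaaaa
Tsr1, 25, chr11:74898092-74898121 (plus strand): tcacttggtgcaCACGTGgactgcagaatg
Ltv1, 29, chr10:13193092-13193121 (minus strand): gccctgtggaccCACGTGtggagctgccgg
Pes1, 3, chr11:3963965-3963994 (plus strand): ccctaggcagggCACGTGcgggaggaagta
Nop2, -60, chr6:125131811-125131840 (plus strand): gtgtccctggatCACGTGtgttccggtgcc
Mybbp1a, 41, chr11:72441347-72441376 (plus strand): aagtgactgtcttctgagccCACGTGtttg

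In 7 of the 9 the E-box lies within the 50 bases after the start site, and Rrn3 carries 2 before it. Of these 9 factors 1 (Utp20) was called in at least 1 comparison below, as were 14 of the 27 factors whose window holds no E-box. The difference between these counts was not tested. These are matches of letters and no measure of binding.

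Another feature that the list did not use is the genes for small nucleolar RNAs that lie inside other genes. In GENCODE vM21, 7 of the 42 factors (16.7%) hold at least 1 annotated snoRNA gene on their own strand, against 1.75% of 12499 tested genes with a position. Nop56 holds 5, Nop58 holds 4, and Wdr43, Gnl3 and Ncl hold 3 each. Tsr1 holds 2 and Dkc1 holds 1. The poly-A libraries counted here report the host transcript, not the snoRNAs. The protocol in the labels describes both a directional and a non-directional way of making the libraries and does not say which was used. For 16 factors an exon overlaps an exon of a gene on the other strand, by 5 bases in Nop56 and by up to 1240 bases in Tsr1, and without strand the reads of the 2 genes cannot be told apart there. Among the factors with a call below these are Heatr1 (155 bases, with Lgals8), Nop14 (144, with Gm15522), Rrp1b (54, with Hsf2bp), Bop1 (50, with Mroh1), Gnl3 (15, with Pbrm1) and Nop56 (5, with Idh3b).

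The factors spanned a wide range of transcript levels, compared here in TPM, which corrects for transcript length, as the median over the 18 libraries. All 5 factors of RNA polymerase I were expressed. Ubtf, which binds and bends ribosomal DNA, was the most abundant of them at 61.2 TPM. Rrn3, which joins the polymerase to its promoter, was at 19.1 TPM. Polr1a and Polr1b, the 2 large subunits that form the catalytic centre, were at 13.4 and 7.72 TPM, and Polr1e, a subunit of the initiating enzyme, at 11.2 TPM.

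The 14 small subunit factors lay between 7.68 and 34.4 TPM. Ltv1, which leaves the small subunit late in its maturation, was highest at 34.4 TPM, and Utp20, a scaffold of the processome, lowest at 7.68 TPM. Wdr43 (24.4 TPM), Utp15 (11.4 TPM), Utp4 (14.7 TPM), Heatr1 (11.2 TPM) and Wdr75 (14.1 TPM) belong to the part of the processome that binds the precursor first. Nop14 (22.4 TPM) and Bms1, a GTPase (17.6 TPM), sit in its core, and Rrp9 (14.8 TPM) belongs to the U3 snoRNP. Nat10, which acetylates ribosomal RNA, stood at 10.3 TPM and Rrp12, an export factor, at 8.38 TPM. Tsr1 (16.6 TPM) and Nob1, the nuclease that makes the end of the small subunit RNA (22.1 TPM), act late.

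The 8 snoRNP proteins ranged from 16.7 TPM (Dkc1) to 112 TPM (Fbl). Fbl, the methyltransferase of box C/D particles, stood at 112 TPM, and its partners Nop56 and Nop58 at 70.3 and 49.6 TPM. In box H/ACA particles, which make pseudouridine, Dkc1, the catalytic protein, stood at 16.7 TPM, below its partners Nhp2 (97.6 TPM), Nop10 (58.3 TPM) and Gar1 (20.4 TPM). Nolc1, a chaperone of both kinds of particle, stood at 24.4 TPM.

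Of the 11 large subunit factors, Pes1, Bop1 and Wdr12 form one complex, and their medians were 63.6, 36.5 and 18.6 TPM. Ebna1bp2, an assembly factor of early large subunit particles, was at 47.1 TPM, Nop16 at 37.6 TPM and Rrs1, which helps bring a small ribosomal RNA into the particle, at 26.0 TPM. The GTPases Gnl2 and Gnl3 (nucleostemin) were at 31.8 and 30.1 TPM. Nop2, an RNA methyltransferase, was at 31.9 TPM, Nip7 at 13.6 TPM and Rrp1b, the lowest of all 42 factors, at 6.45 TPM. The 4 abundant nucleolar proteins were led by Npm1 (nucleophosmin), the highest of the 42, at 420 TPM, and Ncl (nucleolin) at 156 TPM. Mybbp1a stood at 53.5 TPM and the helicase Ddx21 at 41.6 TPM. Together the 42 transcripts summed to between 1217 and 2509 TPM per library.

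**Figure D1:**
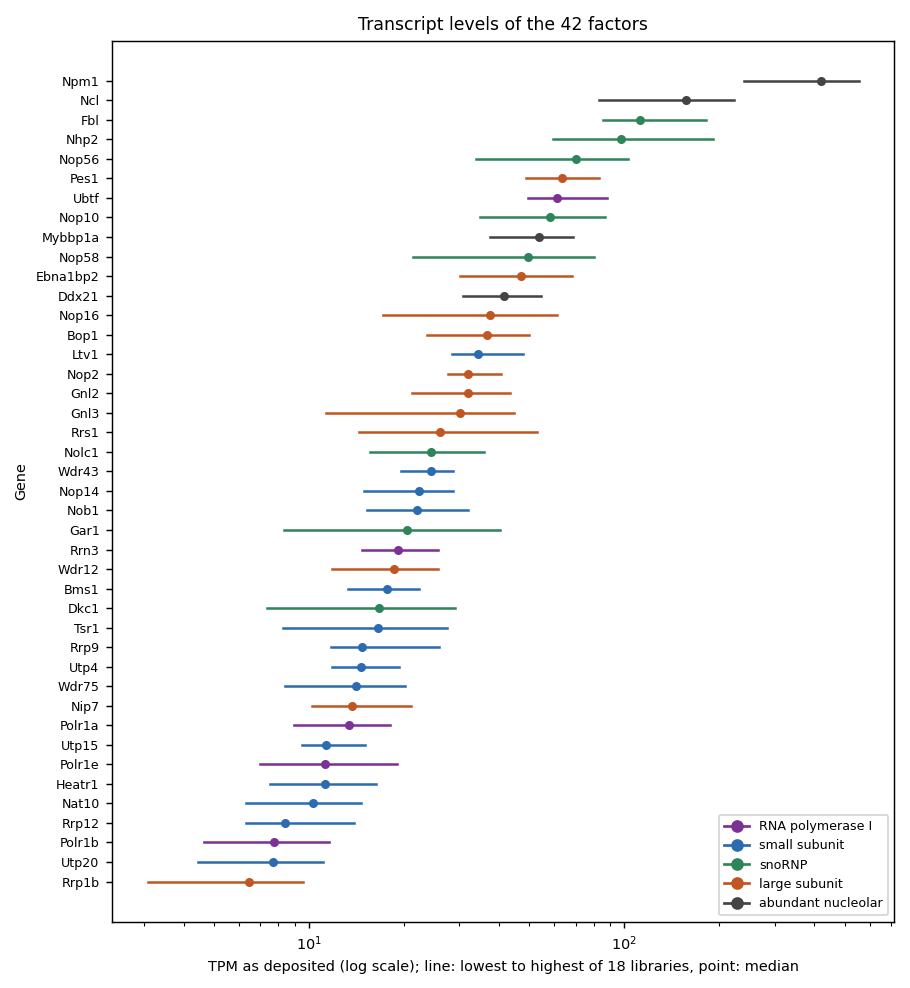
Transcript level of each of the 42 factors in TPM on a log axis. Each line runs from the lowest to the highest of the 18 libraries, the point is the median, and colours give the role. Npm1 has the highest median (420 TPM) and Rrp1b the lowest (6.45 TPM).

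Group means of the factors differed by narrow ratios. The ratio of the highest to the lowest group mean in CPM ran from 1.12 (Utp15) to 2.25 (Rrs1), and it was at least 2-fold for 5 factors, Rrs1, Nop16 (2.17), Gar1 (2.14), Nop58 (2.01) and Gnl3 (2.00). For comparison, the ratio was 4.92 for Myc and 4.56 for Mki67, a marker of dividing cells. In wild type cells the IL4 group had the highest mean for 32 of the 42 factors (76.2%; 32.1% of all genes tested), and in knockout cells for 36 (85.7%; 33.9%). The IL4 group was lowest for 0 factors in either genotype. The full order IL4, untreated, IFN from high to low was shown by 20 factors in wild type (47.6%; 19.7% of all genes) and by 30 in knockout (71.4%; 20.7%). These orders rest on group means, and many neighbouring groups overlap, as the following comparisons show.

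The libraries of a group also differed among themselves, mostly in the same direction for many factors. Untreated knockout library 1 was the lowest of its group for 35 of the 42 factors and untreated knockout library 3 the highest for 36. Among knockout libraries treated with IL4, library 7 was lowest for 29 and library 9 highest for 30. In these groups summed markers of dividing cells (22 genes) had the same order, with 936.3, 1762 and 3082 CPM in untreated knockout libraries 1, 2 and 3 and 1020, 2211 and 3008 CPM in IL4-treated knockout libraries 7, 8 and 9. In wild type, untreated library 1 was lowest for 30 factors and held the fewest dividing-cell transcripts of its group (2044 CPM, against 2765 and 2807 CPM). Wild type IL4 library 8 was highest for 29 factors and held the most of its group (3010 CPM). After IFN, too, the library highest for the most factors held the most dividing-cell transcripts. These were wild type library 5 (18 factors, against 17 for library 4, with 3219 CPM) and knockout library 6 (23 factors, 2340 CPM). The order of the lower IFN libraries was not shared. Wild type library 6 was lowest for 25 factors with 2712 CPM of dividing-cell markers, above library 4 (2530 CPM), and knockout library 5 was lowest for 28 factors with 1224 CPM, above library 4 (1176 CPM). Rpl13a in knockout read 156, 201 and 401 CPM in untreated libraries 1 to 3. It read 248, 189 and 425 CPM in IFN libraries 4 to 6, and 206, 333 and 606 CPM in IL4 libraries 7 to 9. In these groups the library lowest for most factors had the lowest Rpl13a. In wild type IFN libraries 4 to 6 Rpl13a read 437, 552 and 618 CPM, where library 6 was lowest for most factors. The part of Rpl13a and of dividing cells in these orders was not tested.

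**Figure D2:**
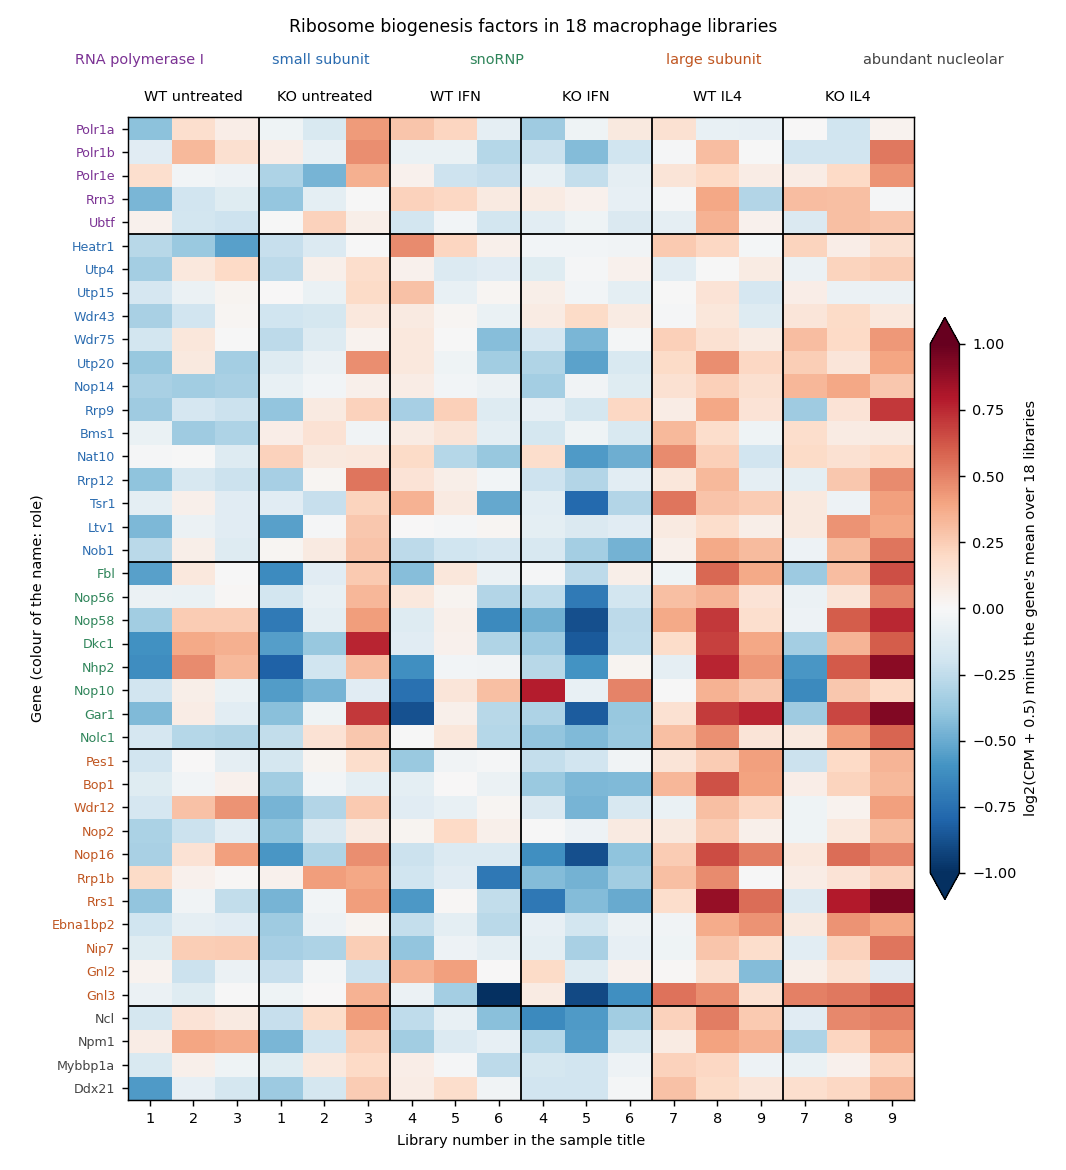
Level of the 42 factors (rows, coloured by role) in the 18 libraries (columns, by group), as log2(CPM + 0.5) minus the mean of the gene over all libraries. Red is above and blue below that mean. The IL4 columns are mostly red in both genotypes, the knockout IFN columns mostly blue, and untreated knockout library 3 is redder than library 1.

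The first question was whether the knockout of a ribosomal protein altered the transcripts of ribosome biogenesis factors in untreated macrophages. No factor was called by edgeR's quasi-likelihood test (0 of 42 at an adjusted p under 0.05, where 0.0799% of all genes tested were called) or by DESeq2 (0 of 42). At an unadjusted p under 0.05, 3 were higher and 0 lower, where 7.54% of all genes were under it in either direction. The log2 fold changes ran from -0.40 (Npm1) to 0.39 (Rrp12), with a median of 0.10 against 0.01 for all genes, and 29 were above 0. The median standard error (SE) was 0.179 on this log2 scale.

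The 3 factors with the lowest p were all of the small subunit. Nop14 read 26.5, 26.1 and 26.5 CPM in wild type libraries 1 to 3 and 31.6, 32.6 and 34.4 CPM in knockout libraries 1 to 3. The groups did not overlap, and the log2 fold change was 0.32 (SE 0.102, adjusted p = 0.393). Bms1 read 42, 34.2 and 35.4 CPM in wild type and 46.1, 48.7 and 42.9 CPM in knockout, also without overlap (log2 0.30, SE 0.119, adjusted p = 0.557). Heatr1 read 35.9, 33.6 and 29.8 CPM against 37.1, 39.5 and 43.4 CPM (log2 0.27, SE 0.125, adjusted p = 0.656). In total, 4 factors stood higher in every knockout library than in every wild type library, the fourth being Nat10, where 6.43% of all genes did. In deposited TPM 18 factors did, as did 15.1% of all genes, on a scale on which the median gene was 0.16 and the median factor 0.28 higher in knockout (log2).

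Npm1, a chaperone of ribosomal proteins and the factor with the lowest fold change, read 332, 414 and 407 CPM in wild type and 229, 275 and 372 CPM in knockout, with overlap. The same libraries held 80 of 81 other cytosolic ribosomal protein transcripts below wild type, with a median log2 fold change of -0.74 and 1 called (Rpl26), while the 102 other ribosome biogenesis genes tested had a median of 0.01 and 0 called. Fibroblast markers summed to 63.5 to 235 CPM in untreated knockout and to 542 to 606 CPM in untreated wild type. Dividing-cell markers summed to 936 to 3080 CPM in untreated knockout and to 2040 to 2810 CPM in untreated wild type. The part of either in the values above was not tested.

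After IFN the direction of most estimates was the opposite. Of the 42 factors 33 stood below 0, with a median of -0.15 against 0.02 for all genes, and 0 were called by edgeR (0.0639% of all genes) or by DESeq2. At an unadjusted p under 0.05, 3 were lower and 0 higher, where 5.79% of all genes were under it in either direction. Bop1, a member of the large subunit complex with Pes1 and Wdr12, read 47.6, 51.2 and 49.1 CPM in wild type libraries 4 to 6 and 39.3, 37.3 and 37.5 CPM in knockout (log2 -0.38, SE 0.117, adjusted p = 0.572). Heatr1 read 60.6, 50.7 and 45.0 CPM against 42.6, 42.8 and 42.4 CPM (log2 -0.29, SE 0.126, adjusted p = 0.772), and Nolc1 50.1, 54.3 and 41.1 CPM against 38.1, 36.9 and 38.6 CPM (log2 -0.36, SE 0.157, adjusted p = 0.794). In each of these 3 the knockout libraries lay close together and below every wild type library. In total, 8 factors did so (Rrn3, Heatr1, Rrp12, Ltv1, Nolc1, Bop1, Wdr12 and Nop16), where 5.71% of all genes did, and 3 did in deposited TPM (7.09% of all genes). Dividing-cell markers did not overlap either, at 1180 to 2340 CPM in knockout and 2530 to 3220 CPM in wild type, and their part in these values was not tested.

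After IL4 the genotypes were closest. The log2 fold changes ran from -0.25 to 0.21 with a median of 0.00, 20 above and 22 below 0. No factor was called by edgeR (0 of 42, with 0.0639% of all genes) or by DESeq2 (0). At an unadjusted p under 0.05, where 2.46% of all genes stood in either direction, 1 factor was lower. That was Bop1, at 64.6, 79.5 and 67.7 CPM in wild type libraries 7 to 9 and 53.6, 59.8 and 64.2 CPM in knockout (log2 -0.25, SE 0.114, adjusted p = 1). Nop14, next in order, read 37.0, 39.4 and 37.2 CPM against 42.1, 43.6 and 40.2 CPM (log2 0.15, SE 0.101, adjusted p = 1), and Wdr43 had a log2 fold change of 0.15 (SE 0.118, adjusted p = 1).

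Over the mean of the 3 treatments the knockout again had 0 of 42 called by edgeR (0.392% of all genes) and 0 by DESeq2, with a median of -0.01. At an unadjusted p under 0.05, 1 was lower, where 10.2% of all genes were under it in either direction. Bop1 had the lowest p (log2 -0.25, SE 0.0666, adjusted p = 0.15), followed by Npm1 (log2 -0.23, SE 0.115, adjusted p = 0.523) and Nop14 (log2 0.10, SE 0.0591, adjusted p = 0.631). Bop1 was below wild type on average in each treatment, although knockout and wild type libraries overlapped in untreated cells (40.1, 50 and 47.7 CPM against 47.0, 50.2 and 52.6 CPM).

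**Figure D3:**
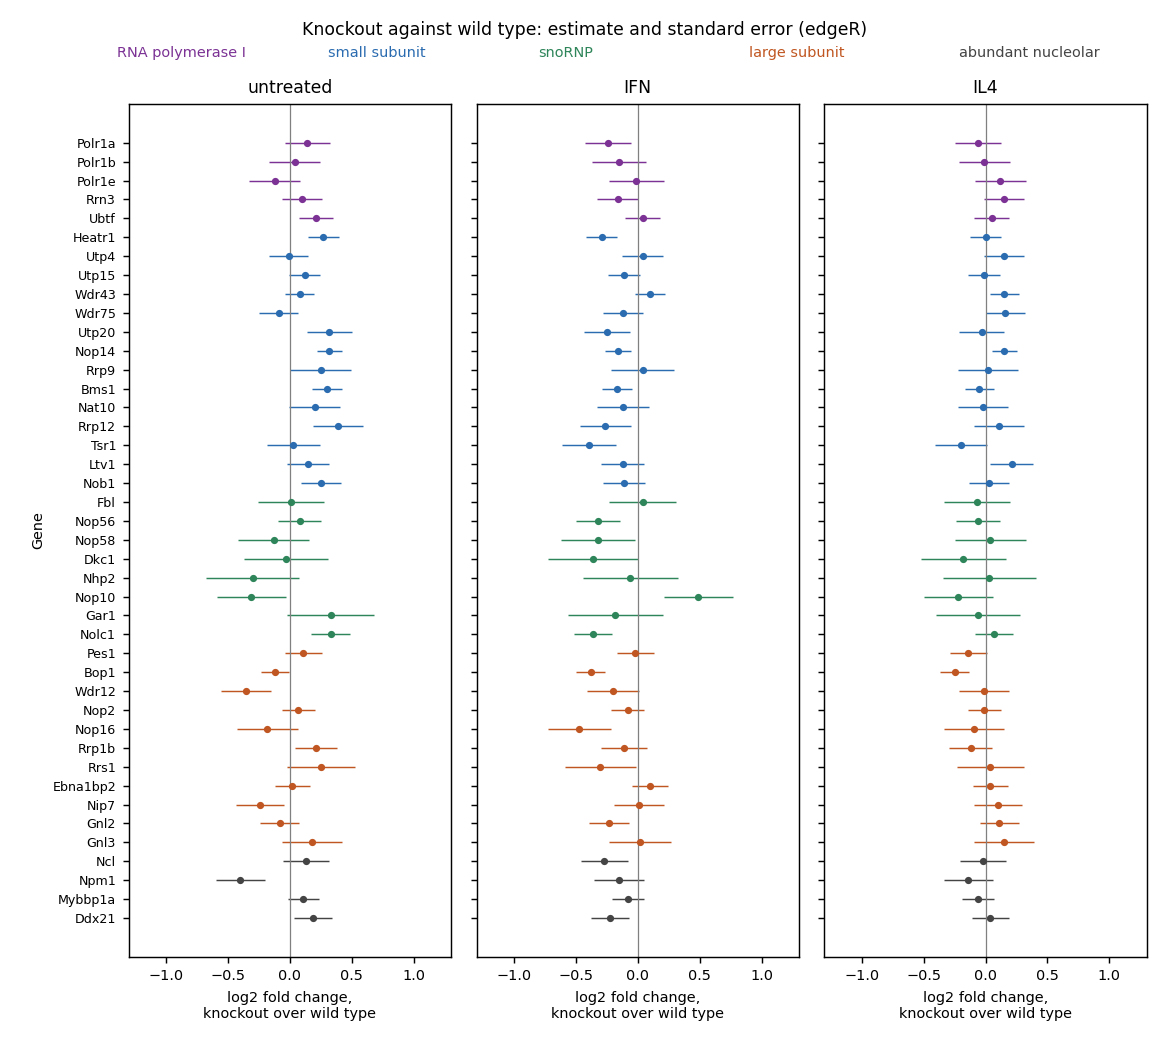
Knockout against wild type for the 42 factors (rows) in untreated, IFN-treated and IL4-treated macrophages, as log2 fold change with 1 standard error either side, coloured by role. In IFN-treated cells 33 of the 42 points lie left of 0, in untreated cells 13, and no factor was called in any treatment.

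Cytokine responses were compared next, beginning with IFN against untreated cells. In wild type, of the 42, 2 rose (11.1% of all genes were called higher) and 0 fell (7.55% were called lower) in edgeR's test, 18 stood above and 24 below 0, and the median log2 fold change was -0.02, as for all genes. Both that rose are scaffolds of the small subunit processome. Heatr1 went from 35.9, 33.6 and 29.8 CPM in untreated libraries 1 to 3 to 60.6, 50.7 and 45.0 CPM in IFN libraries 4 to 6 (log2 0.66, SE 0.126, adjusted p = 0.00147), and kept its call in each of the 6 fits that left out 1 library. Nop14 went from 26.5, 26.1 and 26.5 CPM to 35, 32.7 and 32.0 CPM (log2 0.33, SE 0.103, adjusted p = 0.032), and lost its call in each of these 6 fits (adjusted p up to 0.11), which left 1 called factor. Both groups of libraries were apart without overlap for both factors. Rrn3, next in order, had a log2 fold change of 0.43 (SE 0.164, adjusted p = 0.0823). Fibroblast markers in wild type summed to 542 to 606 CPM untreated and 58.2 to 112 CPM after IFN, and dendritic cell markers to 8.44 to 11.7 and 47.6 to 129 CPM. Their part was not tested.

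In knockout cells treated with IFN, Rrp1b, Ncl and Nolc1 fell (3 of 42; 8.93% of all genes were called lower) and Nop10 rose (1 of 42; 12.6% were called higher), with 34 factors below 0 and a median of -0.19, against -0.03 for all genes. Rrp1b, a large subunit factor, went from 15.2, 19.9 and 19.5 CPM in untreated knockout libraries 1 to 3 to 10.8, 10.5 and 11.5 CPM in libraries 4 to 6 (log2 -0.73, SE 0.176, adjusted p = 0.00677). Ncl, which binds nascent ribosomal RNA, went from 318, 423 and 499 CPM to 240, 252 and 294 CPM (log2 -0.66, SE 0.189, adjusted p = 0.0199). Nolc1 went from 42.3, 55.5 and 60.5 CPM to 38.1, 36.9 and 38.6 CPM (log2 -0.48, SE 0.156, adjusted p = 0.0382). These groups did not overlap, and the untreated library nearest the IFN libraries was library 1 in each case.

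Nop10, the smallest protein of box H/ACA particles, moved the other way in knockout, from 21.9, 23.4 and 30 CPM to 56.5, 30.9 and 46.0 CPM (log2 0.82, SE 0.28, adjusted p = 0.0468). Its 3 partners were not called, with Nhp2 at 30.2, 46.3 and 66.0 CPM before and 43.8, 34.9 and 54.1 CPM after IFN, Gar1 at 8.54, 11.2 and 19.2 against 9.22, 6.27 and 8.79 CPM, and Dkc1 at 15.6, 17.7 and 39.6 against 17.9, 12.7 and 19.3 CPM. Of the cytosolic ribosomal protein transcripts other than Rpl13a, 21 of 81 rose in this comparison (median 0.39). The call of Nop10 was lost in 5 of 6 fits without 1 library (adjusted p up to 0.223), that of Nolc1 in 5, that of Ncl in 4 and that of Rrp1b in 0. The call of Nop10 also ended with RLE size factors (another scaling; adjusted p = 0.0505). The count of 4 called factors became 1 without untreated knockout library 2 or 3, and 2 without knockout IFN library 5 or 6. Dividing-cell markers in knockout ranged from 936 to 3080 CPM untreated and from 1180 to 2340 CPM after IFN, and Mki67 fell (log2 -1.68, SE 0.552, adjusted p = 0.0397). Dendritic cell markers summed to 15.4 to 20.2 CPM untreated and 52.6 to 109 CPM after IFN. The part of these cells was not tested. On deposited TPM the median gene was -0.34 and the median factor -0.53 in this comparison, and 31 factors were lower in every IFN library, where 36.2% of all genes were. In CPM 10 were (15.7% of all genes).

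The difference of the IFN responses between genotypes was tested directly. It was called for 0 of 42 factors, as for 0.0% of all genes in edgeR, and for 0 factors in DESeq2. At an unadjusted p under 0.05, 6 were lower and 0 higher, where 4.93% of all genes were under it in either direction. The median was -0.24 (all genes -0.01), and 32 factors were below 0. The lowest p belonged to Nop14 (log2 -0.48, SE 0.145, adjusted p = 0.767), Heatr1 (log2 -0.57, SE 0.177, adjusted p = 0.775) and Nolc1 (log2 -0.68, SE 0.221, adjusted p = 0.775). For each of these the mean of the knockout was above that of wild type in untreated cells and below it after IFN. With a median SE of 0.255 for such a difference, the genotypes were not shown to respond differently.

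Most factors stood higher, in CPM, in IL4-treated than in untreated cells of both genotypes. In wild type 38 of the 42 had a log2 fold change above 0, with a median of 0.33 against -0.01 for all genes. edgeR called 5 higher (4.96% of all genes were) and 0 lower (3.53% were), and DESeq2 called 5 in all (as it did 1420 of the 12514 genes). The 5 were Nop14, Heatr1 and Bms1 of the small subunit, Nolc1 of the snoRNPs and Bop1 of the large subunit. In all, 19 factors were higher in every IL4 library than in every untreated one (13.8% of all genes), and 14 were in deposited TPM (8.45% of all genes), where the median gene was -0.12 and the median factor 0.21. All 8 snoRNP proteins and 10 of the 11 large subunit factors were above 0 in wild type, as in knockout.

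Nop14 had the lowest p, with 26.5, 26.1 and 26.5 CPM untreated and 37.0, 39.4 and 37.2 CPM in IL4 libraries 7 to 9 (log2 0.52, SE 0.102, adjusted p = 0.00391). Bop1 went from 47.0, 50.2 and 52.6 CPM to 64.6, 79.5 and 67.7 CPM (log2 0.50, SE 0.114, adjusted p = 0.0112). Nolc1 went from 44.5, 41.1 and 40.7 CPM to 62.0, 69.1 and 54.8 CPM (log2 0.56, SE 0.155, adjusted p = 0.0347). None of these groups overlapped. Heatr1 reached 52.3, 50.4 and 43.0 CPM (log2 0.55, SE 0.125, adjusted p = 0.0107) and Bms1 55.1, 49.8 and 42.6 CPM (log2 0.40, SE 0.12, adjusted p = 0.0493). The largest fold, that of Rrs1, was not called, at 23.5, 30.4 and 26.2 CPM before and 35.3, 57.3 and 46.2 CPM after IL4 (log2 0.80, SE 0.273, adjusted p = 0.0905). Of the 5, only the call of Nop14 held in each fit without 1 library. The count of 5 became 2 without untreated wild type library 3 or IL4 library 8, and 3 without untreated library 1 or 2 or IL4 library 7. Fibroblast markers summed to 542 to 606 CPM untreated and 140 to 281 CPM after IL4 in wild type, and dividing-cell markers to 2040 to 2810 and 2340 to 3010 CPM. The dividing-cell sums overlapped. Dendritic cell markers summed to 8.44 to 11.7 CPM untreated and 16.3 to 30.8 CPM after IL4. The part of fibroblasts and dendritic cells was not tested.

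In knockout cells 38 of 42 factors were again above 0, with a median of 0.26 against 0.01 for all genes. A single factor, Nop14, was called higher (5.35% of all genes were) and 0 lower (4.12%). At an unadjusted p under 0.05, 8 were higher and 0 lower, where 22.4% of all genes were under it in either direction. DESeq2 called 3 factors, and 1556 of the 12514 genes. Nop14 went from 31.6, 32.6 and 34.4 CPM to 42.1, 43.6 and 40.2 CPM (log2 0.35, SE 0.101, adjusted p = 0.0377), and lost its call in each of 6 fits without 1 library (adjusted p up to 0.134). The count of 1 became 0 without untreated library 1 or 2 or IL4 library 8 or 9, 2 without untreated library 3 and 3 without IL4 library 7. Bop1 (40.1, 50 and 47.7 CPM before, 53.6, 59.8 and 64.2 CPM after; log2 0.37, SE 0.115, adjusted p = 0.0576) and Ebna1bp2 (32.0, 39.6 and 41.7 CPM before, 44.0, 56.1 and 53.7 CPM after; log2 0.44, SE 0.141, adjusted p = 0.0622) came next. All 3 were higher in every IL4 library, as were 7 factors in all (11.3% of all genes). In deposited TPM 2 were (5.86% of all genes), and the median factor was 0.05 higher, where the median gene was -0.18. On that scale 18 of the 42 factors were below 0, and 6 were below the median gene. Fibroblast markers in knockout summed to 63.5 to 235 CPM untreated and 104 to 554 CPM after IL4, with 10 of the 10 tested above 0 (median log2 fold change 0.84) and 0 called. Dendritic cell markers summed to 15.4 to 20.2 and 37.9 to 51.8 CPM, and dividing-cell markers to 936 to 3080 and 1020 to 3010 CPM. The part of these cells was not tested. The difference of the IL4 responses between genotypes was called for 0 of 42 factors by edgeR (0.0% of all genes) and 0 by DESeq2, with a median of -0.14. At an unadjusted p under 0.05 there were 0 factors, where 1.99% of all genes stood in either direction. The lowest p were those of Bms1 (log2 -0.35, SE 0.169, adjusted p = 1), Heatr1 (log2 -0.28, SE 0.177, adjusted p = 1) and Rrp1b (log2 -0.33, SE 0.24, adjusted p = 1).

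The comparison of the 2 cytokine states, IFN against IL4, gave the most called factors. It shares its libraries with the comparisons above, so it is not separate evidence. In wild type 36 of 42 factors stood lower in IFN than in IL4 cells, with a median of -0.29 against -0.02 for all genes, and 6 fell (9.28% of all genes were called lower) while 0 rose (11.8% were called higher). In knockout 40 of 42 stood lower, with a median of -0.43 against -0.03 for all genes, and 14 fell (9.87% of all genes) while 0 rose (12.4%). All 6 factors called in wild type were among the 14 called in knockout, Bop1, Rrp1b, Ebna1bp2, Gnl3, Rrs1 and Ncl. Of these, 5 are large subunit factors and Ncl is an abundant nucleolar protein. In knockout the calls also took in Nop16 of the large subunit, Nolc1, Nop58 and Nop56 of the snoRNPs and Nop14, Nob1, Wdr75 and Utp20 of the small subunit.

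By role, 5 of 11 large subunit factors were lower in wild type and 6 of 11 in knockout, with medians of -0.49 and -0.43. Of the snoRNP proteins 0 of 8 and 3 of 8 were, with medians of -0.50 and -0.72. None of the 5 factors of RNA polymerase I was called in either genotype, or in any other comparison. Levels of Polr1a, for example, were 56.0, 53.8 and 43.4 CPM in wild type IFN libraries and 51.5, 43.9 and 43.6 CPM in wild type IL4 libraries.

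Bop1 had the lowest p in both genotypes. In wild type it read 47.6, 51.2 and 49.1 CPM in IFN libraries 4 to 6 and 64.6, 79.5 and 67.7 CPM in IL4 libraries 7 to 9 (log2 -0.52, SE 0.115, adjusted p = 0.00369). In knockout it read 39.3, 37.3 and 37.5 CPM against 53.6, 59.8 and 64.2 CPM (log2 -0.64, SE 0.116, adjusted p = 0.000712). The states were apart without overlap in both genotypes. Bop1 (GRCm38 chromosome 15, 76452989 to 76477277, minus strand) encodes a WD-repeat protein of the early large subunit.

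Rrs1 (GRCm38 chromosome 1, 9545408 to 9547455) showed the largest fold among the called factors of the knockout. It read 18.8, 22.9 and 21.8 CPM in IFN and 28.2, 54.4 and 60.0 CPM in IL4 libraries of the knockout (log2 -1.17, SE 0.28, adjusted p = 0.00597). In wild type it read 20.8, 31.4 and 26.2 CPM against 35.3, 57.3 and 46.2 CPM (log2 -0.82, SE 0.276, adjusted p = 0.0439). Every IFN library was below every IL4 library in both genotypes, and the lowest IL4 library was library 7 in each.

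Gnl3 (nucleostemin), a nucleolar GTPase known from stem and dividing cells, read 29.3, 24.0 and 13.9 CPM in IFN and 44.7, 42.3 and 33.9 CPM in IL4 libraries of wild type (log2 -0.84, SE 0.248, adjusted p = 0.0224). In knockout it read 32.3, 16.1 and 19.7 CPM against 43.5, 44.2 and 46.5 CPM (log2 -0.98, SE 0.248, adjusted p = 0.0088). Nop16 read 19.6, 16.2 and 22.8 CPM against 32.5, 44.7 and 42.6 CPM in knockout (log2 -1.03, SE 0.252, adjusted p = 0.00678), and in wild type, where it was not called, 26.0, 27.4 and 27.5 CPM against 36.1, 47.7 and 43.4 CPM. The states did not overlap in either genotype for Gnl3, nor for Nop16. The wild type values of Rrp1b were 12.8, 13.6 and 8.79 CPM after IFN and 18.3, 20.7 and 14.7 CPM after IL4 (log2 -0.61, SE 0.176, adjusted p = 0.0205). In wild type Ebna1bp2 read 34.6, 38.2 and 33.9 CPM against 40.1, 53.1 and 56.2 CPM (log2 -0.49, SE 0.143, adjusted p = 0.0221), again with every IFN library below every IL4 library.

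Ncl read 313, 355 and 280 CPM in IFN and 437, 532 and 448 CPM in IL4 libraries of wild type (log2 -0.58, SE 0.189, adjusted p = 0.0378). In knockout it read 240, 252 and 294 CPM against 346, 522 and 530 CPM (log2 -0.83, SE 0.189, adjusted p = 0.00417). Nolc1 read 38.1, 36.9 and 38.6 CPM against 53.6, 66.7 and 75.2 CPM in knockout (log2 -0.78, SE 0.157, adjusted p = 0.00152), and Nop14 26.2, 32.5 and 30.5 CPM against 42.1, 43.6 and 40.2 CPM (log2 -0.50, SE 0.103, adjusted p = 0.00195). The knockout groups of these 3 factors did not overlap. Nop14 was not called in wild type, at 35, 32.7 and 32.0 CPM in IFN and 37.0, 39.4 and 37.2 CPM in IL4 libraries. Of the other calls in knockout, Nop58 had the largest fold (log2 -1.01, SE 0.294, adjusted p = 0.0209), followed in order of p by the change of Wdr75 (log2 -0.53, SE 0.159, adjusted p = 0.0229). Nob1 fell by 0.62 on the log2 scale (SE 0.165, adjusted p = 0.0124), and Rrp1b, Nop56, Utp20 and Ebna1bp2 had log2 fold changes from -0.59 to -0.43.

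In all, 21 factors were lower in every IFN than in every IL4 library in wild type (17.6% of all genes) and 23 in knockout (15.2%), against 9 (15% of all genes) and 33 (22.2%) in deposited TPM. The median gene in TPM was 0.01 in wild type and -0.15 in knockout, and the median factor -0.27 and -0.56. Of the calls, that of Bop1 held in each fit without 1 library in wild type. In knockout those of Bop1, Ncl, Nolc1, Nop14, Nop16 and Rrs1 held. The wild type count of 6 became 1 without IFN library 6 or IL4 library 8 and 3 without IFN library 4 or IL4 library 9. The knockout count of 14 became 7 without IFN library 5 or IL4 library 9, and ran to 19 at most.

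**Figure D4:**
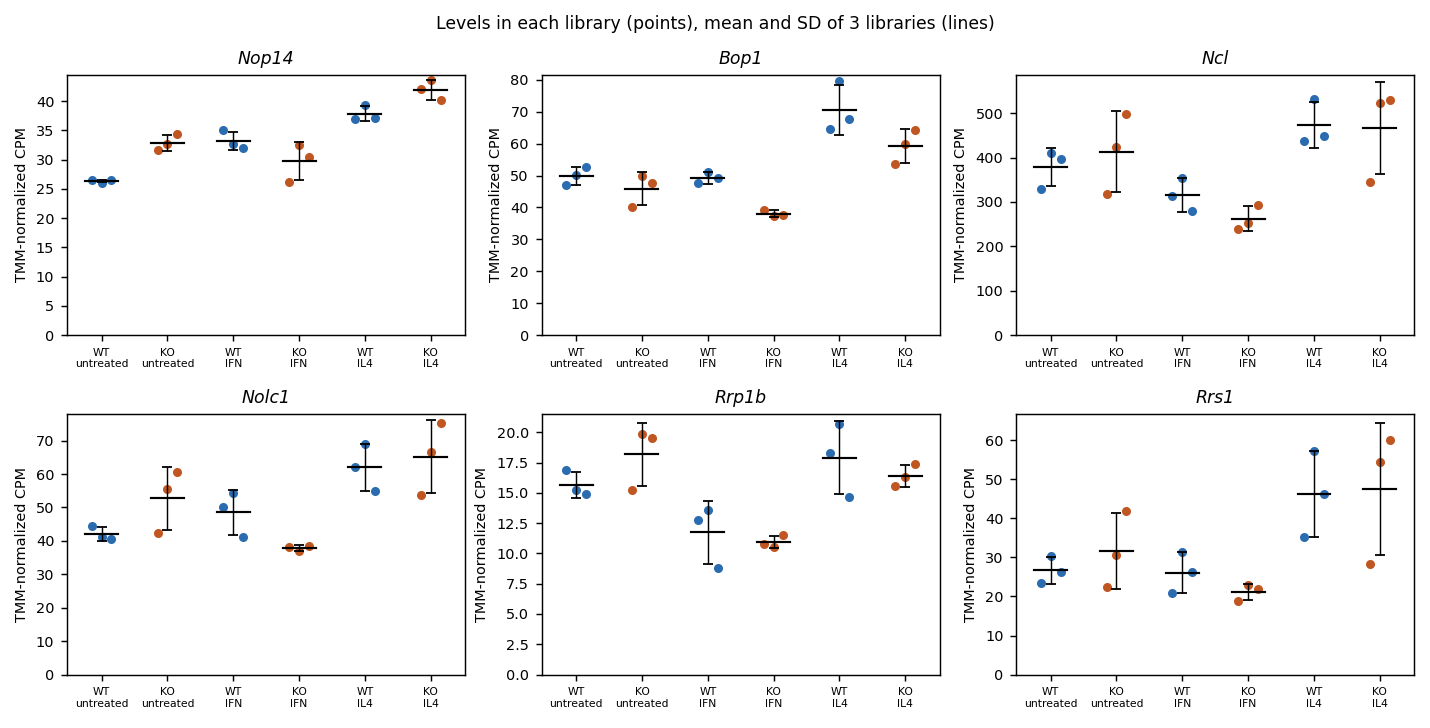
TMM-normalized CPM of 6 factors in each of the 18 libraries (points; blue wild type, orange knockout), with mean and SD of the 3 libraries of a group (lines). Nop14, Bop1, Nolc1 and Rrs1 have their highest group means after IL4 in both genotypes, and Ncl, Nolc1 and Rrp1b lie lowest after IFN in knockout.

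**Figure D5:**
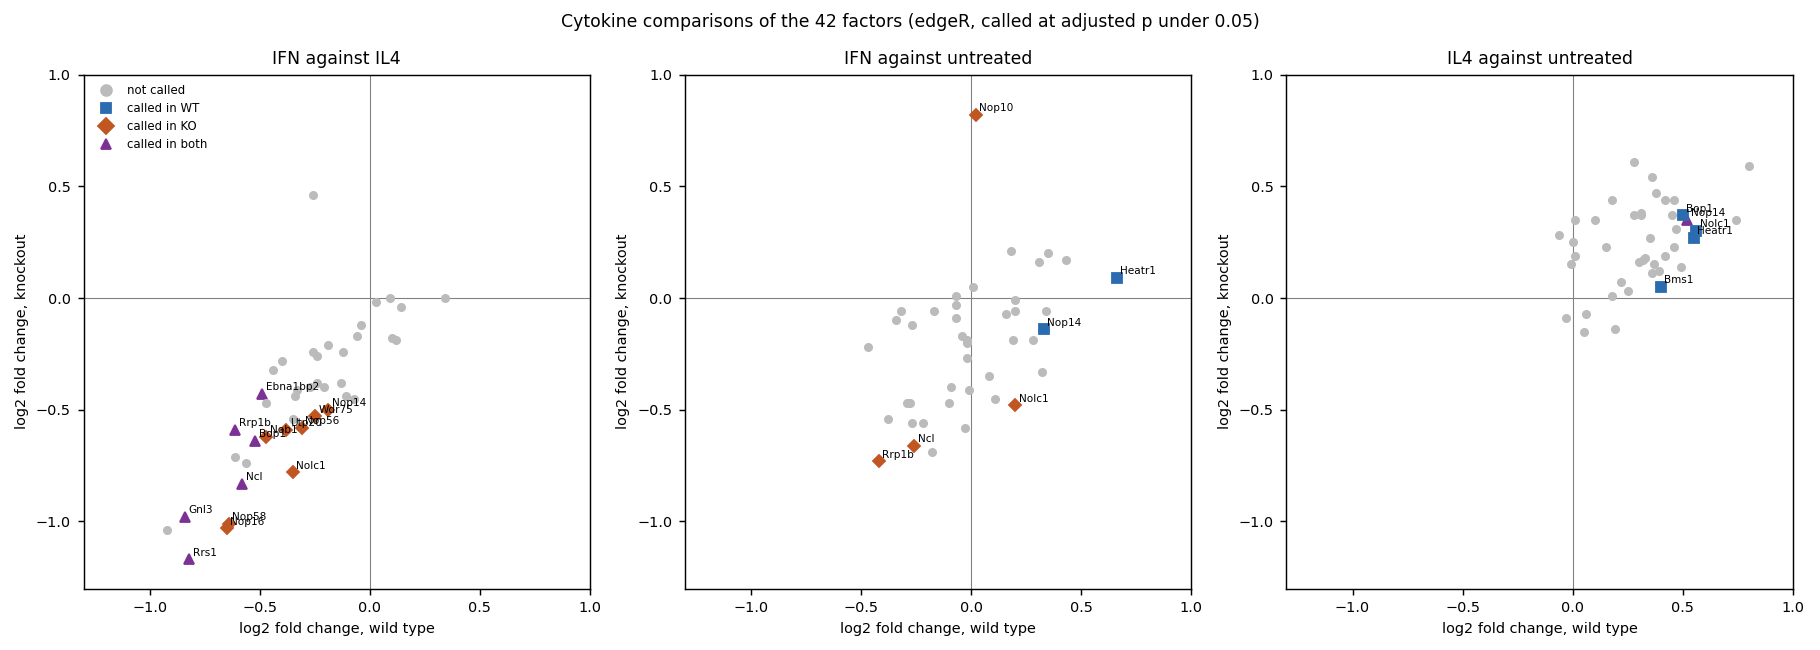
Log2 fold change of the 42 factors in wild type (x axis) and knockout (y axis) for IFN against IL4, IFN against untreated and IL4 against untreated. Colours and shapes give the genotype in which a factor was called. In the first panel most points lie below 0 on both axes, and the 6 factors called in both genotypes are Bop1, Rrp1b, Ebna1bp2, Gnl3, Rrs1 and Ncl.

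Values that moved with this comparison were those of Myc, which read 19.3, 29.8 and 12.9 CPM in IFN and 50.7, 105 and 62.2 CPM in IL4 libraries of wild type (log2 -1.81, SE 0.395, adjusted p = 0.0033). In knockout it read 11.8, 12.1 and 20.4 CPM against 36.8, 95.7 and 71.0 CPM (log2 -2.20, SE 0.406, adjusted p = 0.000812). Against untreated cells Myc was called lower after IFN in knockout (log2 -1.54, SE 0.402, adjusted p = 0.0119, edgeR) but not in wild type. After IL4 it was called in neither genotype. The part of Myc in the levels of the factors was not tested. Dividing-cell markers overlapped between the states in wild type (2530 to 3220 CPM after IFN, 2340 to 3010 CPM after IL4) and in knockout (1180 to 2340 and 1020 to 3010 CPM), and 0 of 22 were called in wild type. Mki67 fell in knockout (log2 -1.94, SE 0.556, adjusted p = 0.0188). Fibroblast markers in wild type summed to 58.2 to 112 CPM after IFN and 140 to 281 CPM after IL4, and dendritic cell markers to 47.6 to 129 and 16.3 to 30.8 CPM. In knockout, fibroblast markers summed to 25.9 to 400 and 104 to 554 CPM, and dendritic cell markers to 52.6 to 109 and 37.9 to 51.8 CPM. The part of these cells was not tested. Of 7 textbook response genes, 3 were called higher in IFN cells and 4 higher in IL4 cells in both genotypes, with Gbp2, Cxcl9 (both IFN) and Mrc1 (IL4) lowest in p.

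Other genes of the pathway, 108 listed by function with 102 tested, had calls in both directions. In IFN against IL4, 71 stood below 0 in wild type and 73 in knockout. There 8 fell and 7 rose in wild type (median -0.16), and 13 fell and 5 rose in knockout (median -0.17). Among these genes Rrp8, which methylates ribosomal RNA, fell in both genotypes, as did Rcl1, a small subunit gene. For Rrp8 the values were log2 -1.12 (SE 0.155, adjusted p = 5.84e-05) in wild type and log2 -1.36 (SE 0.157, adjusted p = 8.83e-06) in knockout. Noc4l moved the other way (log2 1.10, SE 0.188, adjusted p = 0.000441 in wild type; log2 1.11, SE 0.189, adjusted p = 0.000396 in knockout). Of the other large subunit genes Ppan and Ddx27 fell and Sdad1 rose in both genotypes. Of the other RNA polymerase I genes 1 of 10 rose in both, Twistnb (log2 0.45 in each). After IL4 against untreated cells 3 of 102 rose and 0 fell in wild type (Rrp8, Ddx31 and Tcof1; median 0.15), and 3 rose and 1 fell in knockout (median 0.12). After IFN 6 rose and 2 fell in wild type (median 0.00), and 5 rose and 8 fell in knockout (median -0.07). None of the 102 was called between genotypes in edgeR.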

How the data were processed

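The deposited tables hold expected counts and TPM per gene and library, which the authors made with RSEM (1.2.3) and Bowtie (0.12.8) on mm10, per the submitters' processing notes. Libraries came from poly-A selected RNA, per the labels' protocols, and whether strand was kept is not given in the sources used here. A deposited table of normalized values was not used here.

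Expected counts (21.5% not whole) were rounded and tested with edgeR 4.0.16 in R 4.3.3 (filterByExpr, TMM, robust glmQLFit, glmQLFTest, 1 coefficient per group over all 18 libraries). P-values were adjusted by Benjamini-Hochberg over 12514 genes, and called means an adjusted p under 0.05. All p-values are two-sided. The standard error is the absolute log2 fold change divided by the square root of F. The biological coefficient of variation was 0.301. The fit used edgeR's adjusted deviances (legacy = FALSE). This setting was chosen after the factor counts under the older setting (legacy = TRUE) had been seen, to follow an earlier analysis of these data, and the older counts are given in the closing section.

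DESeq2 1.42.0, RLE size factors, no filter, a Y-linked covariate, a replicate block and leaving out each library were alternatives. The edgeR script was tested on simulated data. Same-numbered libraries of the genotypes deviated together after IFN (r = 0.296, 0.135 and 0.276 over 12514 genes) and IL4 (r = 0.586, 0.323 and 0.449), not throughout in untreated cells (r = 0.597, 0.0417 and 0.358). Untreated wild type libraries 2 and 3 still differed by more than sampling noise and were counted as separate.

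All 42 factors may be named. Full statistics are given for up to 10 called factors per comparison with the lowest p, or the 3 with the lowest p where fewer than 3 were called, and from other lists for up to 3 genes with the lowest p. The factors, lists and rules were chosen with earlier results of these data known.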

Additional observations from a re-analysis of the deposited data

How the results depend on the processing

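Of the counts of called factors, 130 alternatives gave a count within 1.5 times the reported one and 32 did not. The 130 include every fit without 1 library in the comparisons of genotypes, where the reported count of 0 stayed 0. They therefore say little about the cytokine counts, which moved as follows. Without a filter on low counts (16339 genes tested) the count was 1 for IFN against untreated wild type cells, 3 for IL4 in wild type and 0 for IL4 in knockout. With a Y-linked covariate it was 3 for IL4 in wild type, and DESeq2 gave 3 for IL4 in knockout. Leaving out 1 library gave 1 to 1 (IFN, wild type), 1 to 5 (IFN, knockout), 2 to 5 (IL4, wild type), 0 to 3 (IL4, knockout), 1 to 5 (IFN against IL4, wild type) and 7 to 19 (IFN against IL4, knockout). It gave 0 in each comparison of genotypes. Where a fit without 1 library leaves 2 in a group, the spread is pooled over the other groups. The cause of these shifts was not tested.

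With the older edgeR setting, an alternative chosen after seeing the data, the counts in this order were 2, 3, 4, 1, 6 and 15, and 0 between genotypes. With the replicate block 0 factors were called in any comparison of genotypes, as without it, while the count over all genes went from 10 to 96 in untreated cells, from 8 to 24 after IFN, from 8 to 27 after IL4 and from 49 to 246 for the mean. DESeq2 called 81, 42, 30 and 201 genes there, and 20 and 1 for the differences of IFN and IL4 responses, where edgeR called 0. The Y-linked covariate gave 39, 5, 3 and 48 genes, and the older setting 4, 7, 8 and 40.

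For the named factors and the counts of factors without overlap, 260 alternatives kept the result, 98 lost a call, 12 (all in deposited TPM) moved a count by over 1.5 times, and 0 changed a sign. All 32 calls had the same sign in deposited TPM, also relative to the median gene. With 3 libraries a group and standard errors near 0.18 (log2), small changes were not detectable.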

Other observations

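Genes of the Myc network, the transcription factor and its partners, were listed beside the factors (10 genes, 9 tested), and several changed with cytokine in both genotypes. In IFN against untreated cells the partner Max rose (log2 0.98, SE 0.141, adjusted p = 0.00012 in wild type; log2 1.18, SE 0.141, adjusted p = 1.74e-05 in knockout). The antagonists Mxi1 and Mxd4 fell, with log2 fold changes of -1.46 and -1.40 in wild type and -0.99 and -1.03 in knockout, while the antagonist Mxd1, named after its values were seen, rose (log2 1.3, adjusted p = 0.0122 in wild type; log2 1.06, adjusted p = 0.0304 in knockout, edgeR). In IL4 against untreated cells Mycl fell in wild type (log2 -5.72, SE 1.05, adjusted p = 0.00155) and knockout (log2 -5.67, SE 1.09, adjusted p = 0.00244, edgeR). Its untreated libraries differed widely (mean 12.5 CPM, SD 9.13 in wild type, and 10.1 CPM, SD 9.21 in knockout). The IL4 means, 0.232 and 0.198 CPM, were near 0, so these log2 values are imprecise. Mycl was also called lower after IFN (log2 -3.07 in wild type and -2.08 in knockout). Mxd4 was lower in IFN than in IL4 cells (log2 -1.98 in wild type and -1.58 in knockout). No gene of this list was called between genotypes by edgeR.

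Transcripts of the 81 cytosolic ribosomal proteins other than Rpl13a are given beside the biogenesis factors, and the difference between these lists was not tested. In IFN against untreated cells their median log2 fold change was -0.35 in wild type (0 rose, 1 fell) and 0.39 in knockout (21 rose, 0 fell), where the medians of the 42 factors were -0.02 and -0.19. In IL4 against untreated cells it was 0.08 in wild type (0 called) and 0.43 in knockout (8 rose), where those of the factors were 0.33 and 0.26. The difference of the IFN responses between genotypes had a median of 0.72 for the ribosomal proteins, with 0 called by edgeR.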
